A study of Mus musculus with 6 samples.

Results

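Glypicans and syndecans are the families of heparan sulfate proteoglycans that sit on the cell surface. Their 10 mouse genes, 6 glypicans (Gpc1, Gpc2, Gpc3, Gpc4, Gpc5 and Gpc6) and 4 syndecans (Sdc1, Sdc2, Sdc3 and Sdc4), were taken by gene symbol from a table of counts for 26130 genes, and all 10 were found. The RNA came from mouse skeletal stem cells, progenitors of cartilage, bone and stroma, which were isolated by fluorescence-activated sorting from the enthesis, where the Achilles tendon inserts into bone, of C57BL/6 mice. The groups were sham control (2 libraries), uninjured (1 library) and injured, in which the enthesis had been partly injured (3 libraries), and the design text places all of them at day 7 after injury. No transgene, deletion or drug is named for any group. The sources used here give no age of the mice, no animals behind each library and no surface markers of the sort. The p-values therefore measure the spread between these libraries only, and that spread may be technical. A description label calls the uninjured library a sham, so it was kept apart in the comparison of injured with sham and joined to the sham libraries, as 3 non-injured libraries, in a second comparison that shares its libraries with the first.

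A glypican is held in the outer membrane leaflet by a glycosylphosphatidylinositol (GPI) anchor, whereas a syndecan crosses the membrane and has a short cytoplasmic tail that binds scaffold and cytoskeletal proteins. Both carry heparan sulfate, a sulfated sugar chain that binds growth factors and morphogens, and so act as co-receptors or as stores for fibroblast growth factors, Hedgehog, Wnt and bone morphogenetic proteins. In cartilage, heparan sulfate is known to shape the range of Indian hedgehog and the response to fibroblast growth factors, and Gpc3, whose loss in humans causes an overgrowth syndrome with skeletal changes, is known as a binder of Hedgehog that keeps it from its receptor.

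In the GENCODE M21 annotation of GRCm38, Gpc3 lies on chromosome X from 52272426 to 52613950 on the minus strand. Gpc4 lies beside it on the same strand, from 52053021 to 52165252. Gpc5 (115092215 to 116525179) and Gpc6 (116925315 to 117976544) are also neighbours, both on the plus strand of chromosome 14. The remaining genes are scattered, with Gpc1 on chromosome 1 (92831645 to 92860779, plus strand), Gpc2 on chromosome 5 (138273655 to 138280005, minus), Sdc1 on chromosome 12 (8771323 to 8793715, plus), Sdc2 on chromosome 15 (32920723 to 33034935, plus), Sdc3 on chromosome 4 (130792537 to 130826319, plus) and Sdc4 on chromosome 2 (164424247 to 164443887, minus).

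The 250 bases before the RefSeq start (GRCm38.p6) were read for the 7 members that the promoter table holds; Gpc1, Gpc6 and Sdc2 are not among them. The promoters shown are those of Gpc3, the member with the lowest level after injury relative to both control groups; of Sdc4 and Sdc3, the syndecans with the largest differences in either direction; and of Gpc5, which had no count in any library. None of these 4 windows holds a base of a GENCODE exon of its own gene. The Sdc4 window lies inside the GENCODE span of Sdc4 (164424247 to 164443887), whereas the other windows lie outside their genes. The windows lie at chrX:52613975-52614224 (minus strand) for Gpc3, chr2:164443189-164443438 (minus) for Sdc4, chr4:130792287-130792536 (plus) for Sdc3 and chr14:115091965-115092214 (plus) for Gpc5. Capitals mark GC boxes (GGGCGG, searched on both strands) and TATA boxes (TATAAA, searched on both strands), which did not overlap each other.
Gpc3: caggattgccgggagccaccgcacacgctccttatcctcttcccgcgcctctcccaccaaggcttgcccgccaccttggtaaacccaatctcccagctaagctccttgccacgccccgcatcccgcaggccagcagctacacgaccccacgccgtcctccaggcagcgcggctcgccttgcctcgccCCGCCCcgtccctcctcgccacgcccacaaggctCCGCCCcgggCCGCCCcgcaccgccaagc
Sdc4: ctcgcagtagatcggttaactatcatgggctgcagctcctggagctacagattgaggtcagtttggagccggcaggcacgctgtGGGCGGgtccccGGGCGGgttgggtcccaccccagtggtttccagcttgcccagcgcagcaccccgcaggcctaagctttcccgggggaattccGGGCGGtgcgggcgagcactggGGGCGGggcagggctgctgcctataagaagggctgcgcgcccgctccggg
Sdc3: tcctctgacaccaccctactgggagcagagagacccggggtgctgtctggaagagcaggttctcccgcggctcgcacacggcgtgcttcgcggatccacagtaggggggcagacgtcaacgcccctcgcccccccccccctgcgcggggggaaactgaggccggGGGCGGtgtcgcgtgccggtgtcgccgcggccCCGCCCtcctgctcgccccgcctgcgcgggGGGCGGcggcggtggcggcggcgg
Gpc5: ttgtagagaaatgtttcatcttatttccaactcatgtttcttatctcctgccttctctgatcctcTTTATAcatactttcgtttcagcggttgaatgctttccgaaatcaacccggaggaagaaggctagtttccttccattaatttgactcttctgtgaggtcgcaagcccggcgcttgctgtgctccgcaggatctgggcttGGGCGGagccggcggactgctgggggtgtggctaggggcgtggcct

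The Gpc3 window had a GC content of 71.6% with 25 CG dinucleotides and 3 GC boxes, the Sdc4 window 68.0% with 19 CG dinucleotides and 4 GC boxes, and the Sdc3 window 76.4% with 32 CG dinucleotides and 3 GC boxes. None of the 3 held TATAAA. The Gpc5 window had a GC content of 51.2%, 12 CG dinucleotides, 1 GC box and 1 TATA box. Among the members not shown, Sdc1, which had reads in every library, had 10 CG dinucleotides, and Gpc4 also had 1 GC box. Over all 32851 RefSeq windows of this length the median GC content was 52.4%, the median number of CG dinucleotides was 6, and 32.7% held a GC box and 12.4% TATAAA. A match is a description of the letters in this window only.

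The 6 libraries held 37506188 to 51089267 counts each, and 14183 to 17281 genes had a count. Each started from 150 pg of RNA that was amplified without molecular tags, so several reads can stem from 1 molecule, and in bulk RNA fewer cells of a type and less RNA per cell cannot be told apart. The ribosomal RNA share of the counts was highest in sham 1 (15.0%) and injured 1 (14.7%) and was 2.89% to 5.32% in the other libraries. Of the genes whose products are commonly used to define mouse skeletal stem cells, Itgav (CD51) was at 31.1 to 116 CPM (counts scaled to a common library total with TMM factors) and Cd200 at 31.0 to 160.2 CPM, while the products that such sorts leave out were also read. Ptprc (CD45) was at 0 to 24.8 CPM, highest in injured 1, Eng (CD105) at 0 to 201 CPM and Tek (TIE2) at 0.580 to 61.7 CPM. Eng was highest in sham 1, and Tek was highest in the uninjured library and in sham 1 (58.1 CPM). The summed macrophage markers spanned 17.1 to 4491 CPM, highest in injured 1, and the neutrophil markers 4.28 to 9934 CPM, highest in sham 1.

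Gpc3 was the member with the clearest difference between the groups. It was measured at 115 CPM (sham 1), 65.3 CPM (sham 2) and 163 CPM (uninjured) without injury, and at 6.83, 10.1 and 14.5 CPM in injured libraries 1, 2 and 3. The highest injured library lay below the lowest non-injured one, so the groups did not overlap, and each injured library still held 302 to 677 Gpc3 reads. The mean was 90.1 ± 35.0 CPM in sham (SD, n = 2) and 10.5 ± 3.85 CPM in injured (SD, n = 3), 8.61-fold lower after injury, and 10.9-fold lower than the non-injured mean of 114.5 ± 49.0 CPM (SD, n = 3).

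By edgeR's quasi-likelihood test the log2 fold change of Gpc3 was -3.11 ± 0.49 (SE) against sham, with an unadjusted p of 0.000443 and an adjusted p of 0.571 over the 16752 genes tested. Against the non-injured libraries it was -3.46 ± 0.50, with an unadjusted p of 0.000185 and an adjusted p of 0.211 over 14110 genes. Gpc3 therefore did not pass the threshold of 0.05 in either comparison, although it stood at rank 13 by p against sham and at rank 11 against non-injured. DESeq2 on the same counts called it lower in both, with an adjusted p of 6.15e-06 against sham and 6.51e-09 against non-injured, and limma-voom did not (adjusted p of 0.631 and 0.220). With any 1 library left out, the log2 fold change against sham stayed between -3.45 and -2.64.

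No member was called by edgeR after adjustment in either comparison, where the background was also 0% of all genes. Against sham 9 of the 10 members could be tested, since Gpc5 had no counts; 7 had a log2 fold change above 0 and 2 below, and their median was 0.08 beside 0.09 for all genes. An unadjusted p under 0.05 was found for 1 member, Gpc3, beside 2.2% of all genes that were lower at that level, and Gpc3 was also the member with all injured libraries below the sham libraries, a pattern of 9.12% of all genes. DESeq2 called 1 member, against 2.2% of all genes, and limma-voom called none, against 0.00597% of all genes; with no filter on low counts edgeR called none, against 0.0155%.

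Against the non-injured libraries 8 members were tested, because Gpc2 fell under the count filter there. Of these, 6 had a log2 fold change above 0 and 2 below, with a median of 0.20 beside 0.00 for all genes. Gpc3 was again the 1 member with an unadjusted p under 0.05 (3.72% of all genes were lower at that level), the 1 that lay wholly below (7.07%) and the 1 that DESeq2 called (2.45% of all genes). No member was called by limma-voom (0.0496% of all genes) or by edgeR without the count filter (0.0258%). No member had all injured libraries above the sham libraries (11.9% of all genes) or above the non-injured libraries (9.23%).

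**Figure D1:**
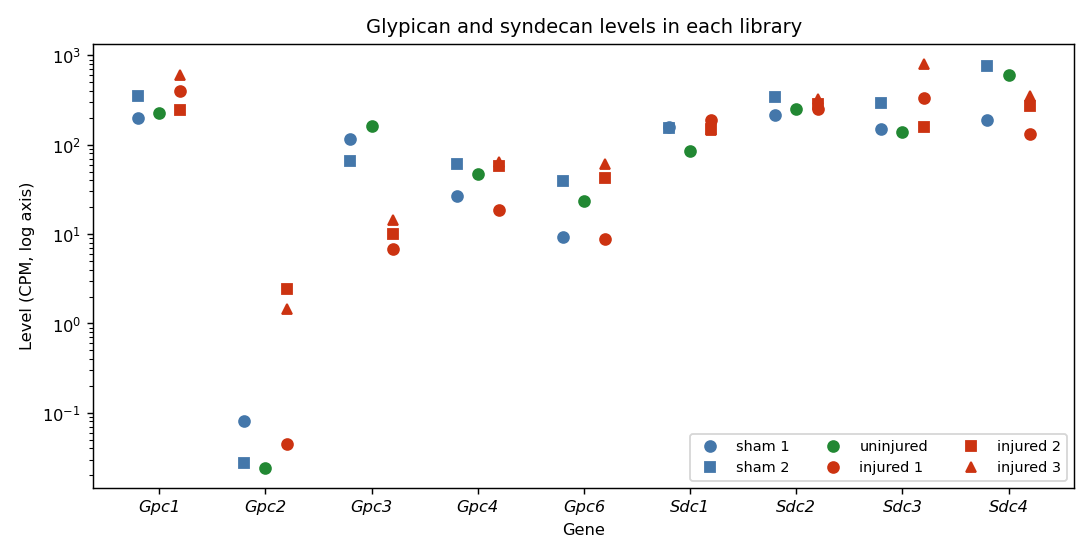
Level of each glypican and syndecan gene in CPM (vertical log axis) in the 6 libraries, 1 point per library, with blue for sham, green for uninjured and red for injured; Gpc5, at 0 in all libraries, is left out. Gpc3 is the gene whose 3 injured points, 6.83 to 14.5 CPM, lie apart from and below all 3 non-injured points.

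**Figure D2:**
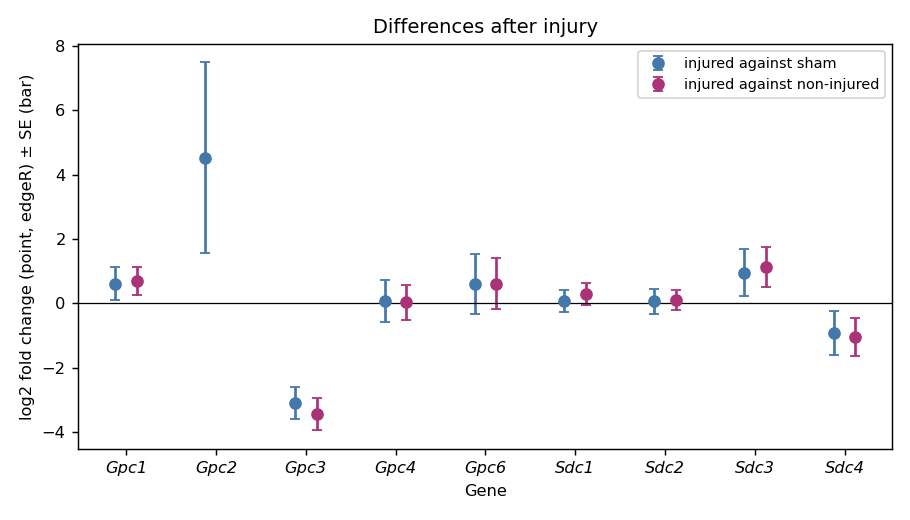
Log2 fold change (points) with its SE (bars) from edgeR for each tested member, injured against sham in blue and injured against non-injured in purple; the comparisons share their injured and sham libraries, and Gpc2 was tested against sham only. Gpc3, at -3.11 and -3.46, lies far below 0 relative to its SE, while the bars of Gpc4, Gpc6, Sdc1 and Sdc2 reach across 0. A bar that stays clear of 0 is no call. Gpc3 alone had an unadjusted p under 0.05 by edgeR, and no member was called after adjustment.

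The neighbours of Gpc3 on chromosome X gave no such difference in the test. Gpc4, the nearest, had a log2 fold change against sham of 0.08. Among the other genes within 1000 kb that were tested by edgeR, Phf6 was at 0.30, Hprt at -0.23, Mospd1 at 0.27, Rtl8c at -0.84, Fam122b at 2.30 and Plac1 at -2.74, Hs6st2 had counts in injured 3 alone, and none had an unadjusted p under 0.05. Marker genes of other cells were examined beside Gpc3 as 14 lists. None of the 14 summed levels put the injured libraries wholly above or below the non-injured ones, but 1 or a few genes carry each sum (Col2a1 made up 59.4% of the chondrocyte sum), and single markers did separate the groups.

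Of 106 marker genes, 6 had all injured libraries above all non-injured ones and 2 had them below. Over all tested genes 9.23% lay wholly above and 7.07% wholly below, which are larger shares than those of the markers. The cartilage genes Col9a1, Matn3 and Cnmd were among those above. Col9a1 was at 5.08, 12.5 and 9.15 CPM in sham 1, sham 2 and the uninjured library and at 257, 76.0 and 1030.3 CPM in injured 1, 2 and 3. Matn3 was at 0, 27.0 and 7.84 CPM and at 386, 135 and 1558 CPM, and Cnmd at 1.41, 2.04 and 4.09 CPM and at 311, 119 and 833 CPM. The rest of the chondrocyte list overlapped between the groups. Of these genes, Col2a1, Acan, Col11a1, Hapln1 and Matn1 had a higher mean after injury, and the other 2 leaned lower. Comp was at 4756, 11127 and 7067 CPM and at 2495, 2872 and 5441 CPM. Sox9 was at 150, 1095 and 588 CPM and at 84.3, 140 and 423 CPM. The others above were Scx, the only gene of the tenocyte list that did not overlap, Pdpn and, at no more than 2.22 CPM, Ckm of muscle. Those below, like Gpc3, were Myh11 of smooth muscle, at 199, 40.7 and 299 CPM and at 7.54, 6.51 and 31.1 CPM, and Mbp of Schwann cells, at 1629, 111 and 108 CPM and at 89.4, 11.8 and 14.4 CPM. The part of these cell types in the Gpc3 level was not tested. The endothelial sum spanned 0.746 to 1074 CPM over the non-injured libraries and 54.0 to 217 CPM over the injured ones.

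Gpc1, a glypican that binds fibroblast growth factors, had a higher mean after injury but overlapping groups. It was at 197, 355 and 226 CPM in sham 1, sham 2 and the uninjured library and at 404, 247 and 609.7 CPM in injured 1, 2 and 3. Injured 1 and 3 lay above all non-injured libraries, but injured 2 lay within their range. The log2 fold change was 0.61 ± 0.52 against sham (edgeR unadjusted p of 0.284) and 0.69 ± 0.43 against non-injured (unadjusted p of 0.150), and against sham it was 0.22 without injured 3, 0.24 without sham 1 and 1.09 without sham 2. Gpc1 shares 977 exon bases with Ankmy1 on the opposite strand, and the sources used here do not say whether reads were assigned by strand; Ankmy1 itself had counts in injured 3 only.

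Gpc4 and Gpc6, a further pair of glypicans with broad mesenchymal expression, spread widely within both groups. Gpc4 was at 26.9, 61.2 and 47.6 CPM in sham 1, sham 2 and the uninjured library and at 18.8, 57.2 and 63.6 CPM in injured 1, 2 and 3. Gpc6 was at 9.24, 39.7 and 23.6 CPM and at 8.74, 42.0 and 60.3 CPM in the same order. Both genes were lowest in sham 1 and injured 1 and highest in injured 3, and the groups overlapped. The log2 fold changes against sham were 0.08 ± 0.65 for Gpc4 and 0.60 ± 0.94 for Gpc6, and the sign of Gpc4 turned with the library left out (-0.39 to 0.79). Sham 1 and injured 1 were also the libraries with the most blood signal, with erythroid sums of 38765 and 6077 CPM against 1.19 to 593 elsewhere; the part of that signal in these levels was not tested.

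Gpc2, known as a glypican of developing neurons, was near the limit of detection. It had 3, 1 and 1 counts in sham 1, sham 2 and the uninjured library and 2, 147 and 68 counts in injured 1, 2 and 3, which is 0.0243 to 0.0811 CPM outside injury and 0.0453, 2.43 and 1.46 CPM after it. Injured 2 and 3 were high and injured 1 lay within the range of the controls. The edgeR log2 fold change against sham was 4.52 ± 2.97 with an unadjusted p of 0.173. Of the 4274 exon bases of Gpc2, 2376 are shared with the protein-coding gene Gm43720 on the same strand. Gm43720 is not among the genes counted, so the counts of Gpc2 may hold reads of it. Gpc5 had 0 counts in all 6 libraries, which allows a level of up to 0.0495 to 0.0828 CPM, depending on the library, if 3 counts are taken as the limit and only counting error is considered.

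Among the syndecans, Sdc4, which is found at focal adhesions and signals through protein kinase C alpha, had the lower mean after injury. It was at 188, 760.3 and 608 CPM in sham 1, sham 2 and the uninjured library and at 132, 269 and 348 CPM in injured 1, 2 and 3. The low sham 1 lay between injured 1 and injured 2, so the groups overlapped. The mean was 474 ± 405 CPM in sham (SD, n = 2) and 249.8 ± 109.6 CPM in injured (SD, n = 3). The log2 fold change was -0.92 ± 0.68 against sham (edgeR unadjusted p of 0.215) and -1.06 ± 0.59 against non-injured (unadjusted p of 0.115). The value against sham rested on sham 2, since it was 0.41 without sham 2 and -1.61 without sham 1. Against non-injured it stayed between -1.46 and -0.67 with any 1 library left out.

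Sdc3, a syndecan of nerve, muscle and cartilage that is known from the growth plate and the developing limb, had the higher mean after injury. It was at 151, 295 and 139.7 CPM in sham 1, sham 2 and the uninjured library and at 334, 156 and 799 CPM in injured 1, 2 and 3. Injured 2 lay among the controls, and injured 3 was the highest of all. The log2 fold change was 0.95 ± 0.73 against sham (edgeR unadjusted p of 0.235) and 1.13 ± 0.62 against non-injured (unadjusted p of 0.112). Without injured 3 it was 0.12 against sham and 0.30 against non-injured. Sdc3 shares 415 exon bases with Gm26716 and 48 with Gm12970, both on the opposite strand and not among the genes counted.

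Sdc1 and Sdc2 had the smallest SEs of the members tested against sham. Sdc1, the main syndecan of epithelia and plasma cells, was at 158, 153 and 86.1 CPM in sham 1, sham 2 and the uninjured library and at 192, 152 and 145 CPM in the injured libraries, with a log2 fold change against sham of 0.07 ± 0.35. Sdc2, the main syndecan of mesenchymal cells, was at 215, 339 and 253 CPM and at 251, 286 and 329 CPM in the same order, with a log2 fold change of 0.06 ± 0.39. The groups overlapped for both genes. The sum of 7 plasma cell markers was 0.771 to 29.3 CPM, and Jchain, one of them, was at 0 in all libraries.

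Compared per length, as CPM per kb of merged GENCODE exons, the non-injured libraries had the order Sdc4 (204 CPM per kb), Sdc2 (76.3), Gpc1 (50.3), Gpc3 (42.6), Sdc1 (34.7), Sdc3 (32.6), Gpc4 (17.1), Gpc6 (3.76), Gpc2 (0.0104) and Gpc5 (0). The ranges of neighbours in this order overlapped down to Sdc3, and from Sdc3 and Gpc4 onward they did not. In the injured libraries the order was Sdc4 (98.1), Sdc2 (81.8), Gpc1 (81.5), Sdc3 (71.7), Sdc1 (42.8), Gpc4 (17.6), Gpc6 (5.76), Gpc3 (3.89), Gpc2 (0.306) and Gpc5 (0). Here the ranges of neighbours were clear of each other only between Sdc1 and Gpc4, between Gpc3 and Gpc2 and between Gpc2 and Gpc5. Within single libraries some overlapping neighbours kept their order. Sdc4 was above Sdc2, and Sdc2 above Gpc1, in all 3 non-injured libraries, and Gpc4 was above Gpc6 in all 3 injured libraries. The other overlapping neighbours did not keep their order in every library. Gpc3 stood at rank 3, 6 and 3 among the 10 members in sham 1, sham 2 and the uninjured library and at rank 7, 8 and 8 in the injured libraries.

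The summed level of neither family separated the groups, while the make-up of the glypicans did. The glypican sum was 348, 521 and 460.2 CPM in sham 1, sham 2 and the uninjured library and 439, 359 and 749.6 CPM in the injured libraries, and the syndecan sum was 712, 1547 and 1087 CPM and 909, 863 and 1621 CPM. The log2 difference of injured minus non-injured was 0.17 for glypicans and 0.03 for syndecans, and both turned sign when some single libraries were left out. Per length, Gpc3 made up 46.1%, 19.9% and 48.2% of the glypican total in the non-injured libraries and 2.84%, 4.66% and 3.43% in the injured libraries. Gpc1 made up 41.3%, 56.2% and 34.7% and then 87.7%, 59.6% and 75.1%, so its injured shares lay above its non-injured ones, though its level did not. Shares of a total are bound to each other, and how much of the higher Gpc1 share comes with the lower Gpc3 was not tested.

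In the syndecans Sdc4 held 36.6%, 61.7% and 67.0% of the per-length total in the non-injured libraries and 22.6%, 41.8% and 34.1% in the injured libraries, and the groups overlapped. The share of Sdc3 was 12.6%, 10.2% and 6.54% and then 24.3%, 10.3% and 33.2%. Injured 2 was the library in which the Sdc3 share lay within the non-injured range.

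**Figure D3:**
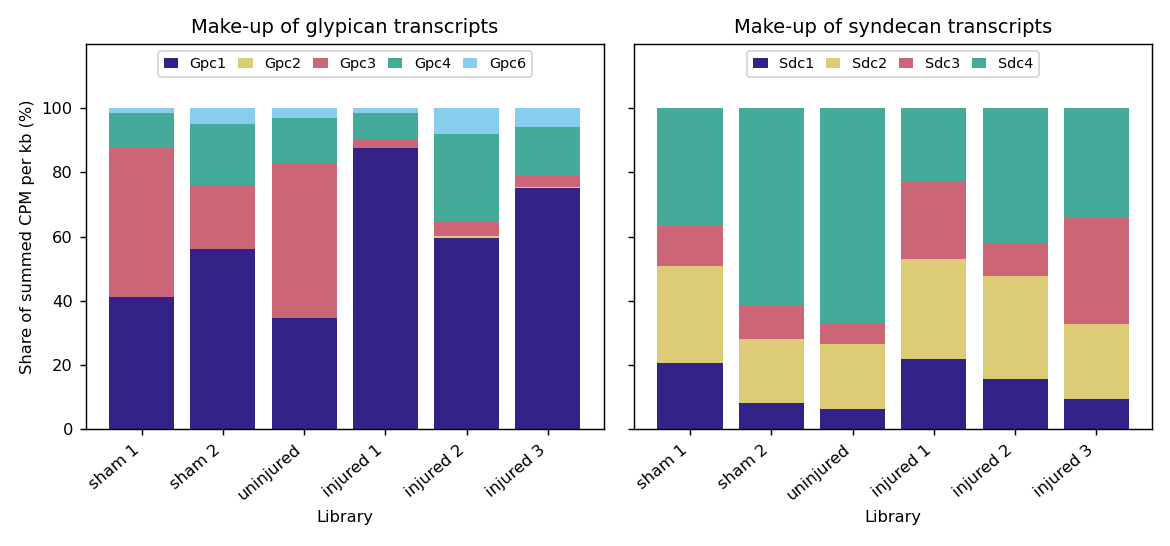
Make-up of the glypican (left) and syndecan (right) transcripts in each library, as the percentage of the summed CPM per kb of the family; Gpc5 had no counts. The Gpc3 segment takes 19.9% to 48.2% in the 3 non-injured libraries and 2.84% to 4.66% in the 3 injured libraries.

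Several members had nearly the same or the opposite order of libraries as a marker list. The chondrocyte sum (Col2a1, Acan and 8 others) was 6289, 31330 and 8649 CPM in sham 1, sham 2 and the uninjured library and 17265, 10707 and 57195 CPM in injured 1, 2 and 3, and its order over the 6 libraries was close to that of Gpc1 (Spearman's rho of 0.943) and Sdc3 (0.886). The osteoblast sum, of which Spp1 made up 66.5%, was 3387, 23263 and 11463 CPM and 1384, 5369 and 6890.5 CPM, the same order of libraries as Sdc4, the 1 such match among 126 pairs of a member and a list. In all, 16 of the 126 pairs had a rho of 0.88 or more in size. The share of such pairs among all genes was not computed, so the number is not a trait of the members. The pairs are also not separate, since the erythroid, macrophage and neutrophil sums were all highest in sham 1 and injured 1. Among the 16 pairs, Sdc4 had a rho of 0.943 with the tenocyte and -0.943 with the macrophage sum. Sdc2 had a rho of -0.943 with the erythroid, neutrophil and endothelial sums and 0.886 with the tenocyte sum. Gpc4 had a rho of -0.943 with the neutrophil and 0.886 with the tenocyte sum. These orders were noticed after the values were seen, they share the libraries and their depth, and the part of these cell types in the levels of the members was not tested.

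The machinery around these proteoglycans was read from 10 lists of 120 genes, of which 112 were tested against sham. An unadjusted p under 0.05 was found by edgeR for 4 genes that were higher and 5 that were lower, beside 2.44% and 2.2% of all genes, and none of the 112 was called after adjustment. DESeq2 called 2 of them higher and 3 lower, beside 1.43% and 0.77% of all genes. Against the non-injured libraries 105 were tested, 9 were higher and 6 lower at an unadjusted p under 0.05 (3.71% and 3.72% of all genes), and DESeq2 called 3 higher and 5 lower (0.992% and 1.45%).

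The enzymes that start the heparan sulfate chain build a linker that is not particular to heparan sulfate. They include 2 with an unadjusted p under 0.05 by edgeR. By edgeR all 7 enzymes of the linker sugars had a log2 fold change above 0 against sham, with a median of 0.37 beside 0.09 for all genes, but 6 did by limma-voom or without sham 2, and 5 did without sham 1 or without injured 3. Fam20b, a kinase of the linker, was below 0 by limma-voom (-0.41), and its edgeR value of 0.19 came with 82.8 CPM in injured 3, while injured 1 and 2, at 18.2 and 9.71 CPM, lay below all non-injured libraries (24.1 to 40.5 CPM). Fam20b was named after its values were seen. B4galt7, which adds the first galactose, was at 11.8, 11.8 and 18.9 CPM in sham 1, sham 2 and the uninjured library and at 31.4, 36.5 and 34.0 CPM in the injured libraries (log2 fold change against sham 1.53 ± 0.51, edgeR unadjusted p of 0.0203). B3galt6, which adds the second galactose, was at 7.33, 8.64 and 8.57 CPM and at 44.2, 25.5 and 21.1 CPM (1.92 ± 0.65, edgeR unadjusted p of 0.0217). Both had all injured libraries above all non-injured libraries. Of the 5 chain polymerases all were above 0 by edgeR, with a median of 1.12, and 4 were by limma-voom and without injured 3; none had an unadjusted p under 0.05. The exception by limma-voom was Extl1 (-0.44), also named after its values were seen, which had 11.5 CPM in injured 3 and 0 in injured 1 and 2. Ext1, a subunit of the main polymerase, was at 10.4, 48.5 and 27.3 CPM and at 56.7, 45.2 and 100.5 CPM, which overlap. Its log2 fold change was 1.20 ± 0.74, and 0.48 without sham 1 and 2.71 without sham 2. Extl2 was at 19.9, 6.93 and 29.7 CPM and at 29.8, 34.1 and 23.7 CPM, so the uninjured library lay within the injured range. Its log2 fold change against sham was 1.12 ± 0.64, and 2.07 without sham 1 and 0.56 without sham 2. Against non-injured it was 0.63 ± 0.59.

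The list of sulfotransferase and epimerase genes held 18 genes, among them Papss1 and Papss2, which make the sulfate donor and are neither. Against sham 14 were tested, 11 above 0 and 3 below, with a median of 0.93 beside 0.09 for all genes. That median lay between the values of Papss1 (0.67) and Papss2 (1.19). Against non-injured 11 were tested, 7 above 0 and 4 below, with a median of 0.05 beside 0.00 for all genes. Hs3st1, the enzyme that adds the 3-O-sulfate known from the antithrombin-binding site, had the smallest p of the list. It was at 72.7, 30.5 and 85.1 CPM in sham 1, sham 2 and the uninjured library and at 3.26, 1.78 and 4.09 CPM in the injured libraries, without overlap. The order of the libraries was that of Gpc3 except that injured 1 and 2 changed places. The log2 fold change of Hs3st1 against sham was -4.08 ± 0.62, with an adjusted p of 0.525 by edgeR and of 8.20e-07 by DESeq2. Glce, the epimerase, had a log2 fold change of 1.78 ± 0.84 against sham (1.12 without sham 1, 3.02 without sham 2) but 0.05 ± 1.00 against non-injured, since the uninjured library was the highest of all at 39.9 CPM. The gene that DESeq2 called higher, Hs6st2, had counts in injured 3 alone, 120 of them, and was named after its values were seen.

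The genes that trim or release the proteoglycans gave no called difference by edgeR. Of the 4 remodelling enzymes, 3 were above 0. The other, Hpse2, had no count in any sham or injured library and 170 counts in the uninjured library. The 6-O-endosulfatases Sulf1 and Sulf2 had log2 fold changes against sham of 0.58 ± 0.53 and 0.48 ± 0.44. With 1 library left out Sulf1 ranged from 0.18 (without sham 1) to 1.16 (without sham 2). Sulf2 ranged from 0.18 (without sham 1) to 0.85 (without sham 2). Of 8 genes that cleave glypicans or their anchor, 3 were above 0 and 5 below, with Pcsk6 and Pcsk5, proprotein convertases, at -1.20 ± 0.65 and -0.59 ± 0.53; Pcsk6 was at 0.10 without sham 1 and Pcsk5 at 0.36 without sham 2. Of the syndecan shedding list, 7 of 10 were tested, 2 above 0 and 5 below. Timp3, an inhibitor of the shedding proteases and not a protease, was at 405, 1114 and 2125 CPM in the non-injured libraries and at 119.7, 221 and 366 CPM in the injured libraries, with no overlap (-1.69 ± 0.64 against sham, edgeR unadjusted p of 0.0344, and -0.78 without sham 2). DESeq2 did not call Timp3 against sham (adjusted p of 0.173) and called it against non-injured (adjusted p of 0.00891). Adam17, a protease known to shed syndecans, was at -0.62 ± 0.70, and at 0.30 without sham 2.

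Of 16 genes listed as cytoplasmic partners of the syndecans, direct or indirect, 9 were above 0 and 7 below against sham, with a median of 0.11. Actn1, the alpha-actinin that binds the tail of Sdc4, was at 42.6, 29.6 and 17.8 CPM in the non-injured libraries and at 60.7, 61.6 and 86.5 CPM in the injured libraries, without overlap (0.95 ± 0.43, edgeR unadjusted p of 0.0641). Prkcd was at -0.80 ± 0.54 (-0.49 without injured 3). Sdcbp, named outside the rule after its values were seen, is syntenin, the scaffold that all syndecans bind, and was at 244, 316 and 335 CPM and at 328, 306 and 285 CPM, which overlap. Among 12 other heparan sulfate proteoglycans, 4 were above 0 and 8 below. Tgfbr3, betaglycan, was at 197, 168 and 376 CPM in the non-injured libraries and at 58.3, 111 and 79.0 CPM in the injured libraries (-1.14 ± 0.40, edgeR unadjusted p of 0.0252), with no overlap. Agrn, agrin, was higher in injured 1 and 3, at 27.2 and 33.6 CPM, than in the other libraries, at 2.00 to 7.04 CPM (2.04 ± 0.98).

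Among the ligands, Indian hedgehog had reads after injury alone. Of 23 heparan sulfate binding ligands 22 were tested, 9 above 0 and 13 below against sham, with a median of -0.74 beside 0.09 for all genes. Ihh, its gene, had 0 counts in all non-injured libraries and was at 85.8, 23.1 and 67.9 CPM in injured 1, 2 and 3, at least 1348-fold higher than the sham libraries when 3 counts over the group are taken as the floor (edgeR adjusted p of 0.300, DESeq2 adjusted p of 2.90e-12). Hbegf, heparin-binding EGF-like growth factor, was at 215, 338 and 235 CPM and at 76.7, 107 and 125.0 CPM (-1.43 ± 0.40, edgeR unadjusted p of 0.00954, DESeq2 adjusted p of 0.0275). All 3 injured libraries lay below the non-injured ones.

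The 2 remaining ligands with an unadjusted p under 0.05 were named after their values were seen. Fgf1, which needs heparan sulfate to engage its receptor, was at 56.3, 82.1 and 76.3 CPM in the non-injured libraries and at 0.0905, 6.13 and 4.00 CPM in the injured libraries (-4.34 ± 1.30, DESeq2 adjusted p of 0.0199). Tnc, tenascin-C, was at 134, 393 and 136 CPM and at 940.5, 478 and 925 CPM (1.57 ± 0.62, edgeR unadjusted p of 0.0389). In both, the injured libraries were clear of the non-injured ones.

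Of 19 receptors and partners 9 were above 0 and 10 below against sham, with a median of -0.04, and none had an unadjusted p under 0.05. Fgfr3, the fibroblast growth factor receptor of growth plate cartilage, was at 11.1, 65.5 and 38.0 CPM in the non-injured libraries and at 114, 63.6 and 356 CPM in the injured libraries (2.22 ± 1.01), and injured 2 lay just under sham 2. Without injured 3 the value was 1.21, and without sham 2 it was 4.00. Ptprs, a receptor phosphatase that binds heparan sulfate, was at 0.74 ± 0.50 (0.20 without sham 1, 1.64 without sham 2). The Hedgehog receptor Ptch1, named outside the rule after its values were seen, was at 2.87, 9.75 and 21.7 CPM and at 0.317, 2.06 and 16.04 CPM, so the groups overlapped, with a log2 fold change of -0.04 ± 1.56.

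**Figure D4:**
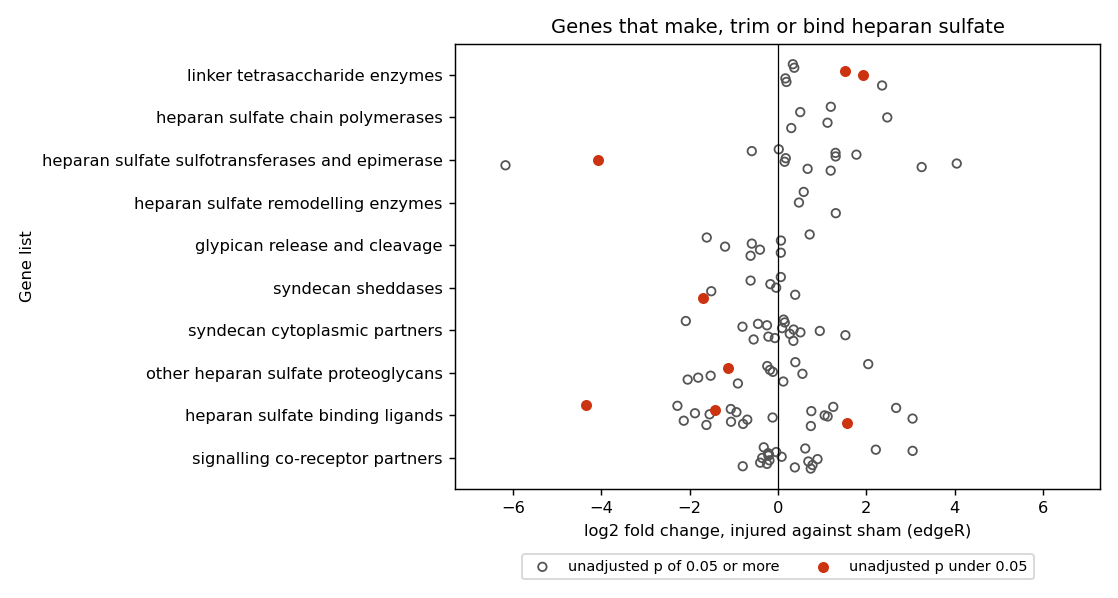
Log2 fold change of injured against sham (edgeR) for the tested genes of the 10 lists that make, trim or bind heparan sulfate, 1 circle per gene, filled in red where the unadjusted p was under 0.05. Left out are the 3 genes with no count in the sham libraries, in the injured libraries or in both. The linker and polymerase circles all lie above 0 in this edgeR fit, though by limma-voom Fam20b (-0.41) and Extl1 (-0.44) do not, and the red circles below 0 are Hs3st1, Timp3, Tgfbr3, Fgf1 and Hbegf.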

How the data were processed

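RNA was sequenced from 6 libraries of sorted cells. The input was 150 pg of RNA, amplified as cDNA with an ultra-low-input kit per the labels' protocols. The deposited values are whole-number counts per gene symbol; the submitters' processing notes name Salmon 0.12.0, DESeq2 1.22.2 and DESeq and the builds GRCm38.p6 and mm9, with no role, and the sources used here do not say how estimates were summed or rounded. Of 26130 genes, 6714 had no count.

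Counts were scaled by TMM to CPM, filtered with filterByExpr (minimum count 10) and tested by the quasi-likelihood F test of edgeR 4.0.16 (R 4.3.3), 2-sided. The p-values were adjusted by Benjamini-Hochberg across the tested genes, and 0.05 was the threshold. The fit against sham held all 6 libraries as 3 groups, and the other held 2 groups. SEs were derived from the F statistic. Scripts were tested on simulated data. Members and gene lists were chosen with earlier results of these data known; the genes named are all members and, from each of the 10 lists, the 2 with the smallest p against sham. Any other gene was named after its values were seen. Alternatives were DESeq2 1.42.0, limma-voom (limma 3.58.1), other scalings, no filter, no ribosomal RNA genes, sham and injured libraries alone, libraries left out and a replicate block. Exon lengths came from GENCODE M21, promoters from RefSeq.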

Additional observations from a re-analysis of the deposited data

How the results depend on the processing

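Under edgeR no gene was called in either comparison, nor with any 1 library left out (0 to 0 genes). Against sham DESeq2 called 369 genes, edgeR without the count filter 3 and limma-voom 1; against non-injured they called 345, 5 and 7. DESeq2 called 1 glypican or syndecan gene, Gpc3, in each. The log2 fold change of Gpc3 ranged over all alternatives from -3.45 to -2.41 against sham and from -3.80 to -3.11 against non-injured. With library size as the only scaling, the median of all genes against sham went from 0.09 to 0.23 and the unadjusted calls from 409 higher and 369 lower to 538 and 287; against non-injured they went from 524 and 525 to 648 and 430.

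Some differences turned sign, and the cause was not tested. Against sham Sdc2 was at -0.0072 with DESeq2 and with relative log expression factors. Without sham 1 and injured 1 together Gpc4 was at -0.018, Sdc1 at -0.039, Sdc2 at -0.14, Sulf2 at -0.091 and Pcsk6 at 0.089. Against non-injured Gpc4 was at -0.019 with DESeq2 and with relative log expression factors and at -0.046 with limma-voom, and without sham 1 and injured 1 Glce was at -0.25 and Pcsk6 at 0.39.

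With 1 library left out, the ranges against sham were -0.39 to 0.79 for Gpc4, -0.10 to 2.00 for Gpc6, -0.063 to 0.12 for Sdc1, -0.23 to 0.42 for Sdc2, -1.61 to 0.41 for Sdc4, -1.87 to 0.10 for Pcsk6, -1.16 to 0.36 for Pcsk5 and -1.17 to 0.30 for Adam17. Against non-injured they were -0.27 to 0.42 for Gpc4, -0.038 to 0.30 for Sdc2, -0.46 to 1.79 for Glce and -1.21 to 0.40 for Pcsk6. Where 1 sham library remained, it was assumed to vary like the other groups. The summed level, injured minus non-injured, ranged from -0.14 to 0.39 for glypicans and from -0.26 to 0.30 for syndecans.

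Sham and injured libraries share the numbers 1 and 2 in their titles. With these as a replicate block edgeR called 0 genes, Gpc3 was at -3.41, Gpc4 at -0.33, Gpc6 at -0.022 and Sdc2 at -0.035. The fit kept 1 residual degree of freedom, and the deviations of the pairs correlated at 0.353 and 0.0107. With 2 sham libraries these deviations mirror each other, so the values do not settle whether the numbers pair the libraries.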
